A study of Arabidopsis thaliana with 87 samples.

Results

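Fully green and fully red leaves of Arabidopsis thaliana plants carrying RUBY behind the ZmUBQ promoter were compared by the small RNA that matches the transgene. RUBY encodes enzymes that turn tyrosine into betalain, a red pigment, so leaf colour reports whether the transgene's products are made. Transcription of RUBY was not measured in these files. ZmUBQ stands for a maize ubiquitin promoter, here used in a dicot host. The libraries were chosen by their titles, as all those of ZmUBQ RUBY events with the words Fully Green or Fully Red, which gave 7 and 7 libraries, 14 of the 87 in the series. The 7 fully green libraries came from event MK054 (numbers 3 and 4), event MK055 (numbers 1, 2 and 3) and event MK056 (numbers 5 and 6), and the 7 fully red libraries carried the same events and numbers. All 14 came from leaf tissue of 4-week-old plants of Columbia-0 (Col-0), the wild-type background. The plants were grown at 22 °C with 18 h light and 6 h dark. All carried the transgene, so there was no library without it. Another 4 ZmUBQ libraries of always red Col-0 plants came from MK054 (numbers 1 and 2) and MK056 (numbers 2 and 4) and none from MK055. The series also holds 35S RUBY lines, driven by a promoter of cauliflower mosaic virus, of which 9 fully green and 13 fully red Col-0 libraries are set beside the ZmUBQ ones at the end. The always red and 35S libraries used had the same labels of plant age and growth conditions. The labels do not say whether a library is 1 plant or a pool, or what its number stands for. The p-values therefore measure the spread between these libraries, which may in part be technical, and libraries of 1 event share its transgene insertion.

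In plants, RNA-dependent RNA polymerases copy transgene RNA into double strands, and DICER-LIKE enzymes cut these into small interfering RNAs that carry both strands. DCL4 makes mainly 21 nt products and DCL2 22 nt products, which guide cleavage of matching messenger RNA and its further copying, while DCL3 makes 24 nt products, which guide DNA methylation. Reads outside these lengths can also be partial breakdown products of longer RNA. Each library was described by 22 classes, the 11 lengths from 18 to 28 nt on each strand of the transgene as the files name the strands, plus and minus. The labels do not say which of them has the sequence of the RUBY messenger RNA. The files hold transgene reads only, summed over the whole transgene, so leaf markers were not measured and no position within RUBY is known.

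Libraries had 10.5 to 19.6 M mapped reads (1 M is 1000000 reads) in fully green leaves and 8.04 to 17.9 M in fully red leaves. Of these, 37490 to 301802 reads per fully green library and 1797 to 10471 per fully red library fell on the transgene. Levels are in reads per 1000000 mapped reads (RPM), as deposited. A count of 3 reads equals 0.153 to 0.373 RPM over the 14 libraries, and this floor and the binomial intervals below cover counting error only, since reads were counted with no molecular identifiers and PCR copies enter as separate reads. A fold was taken from the difference between group means of log2(RPM + 1), which understates the change of classes near 1 RPM. Tests are two-sided exact permutation tests with 3432 ways to label 7 of the 14 libraries as fully green, whose smallest p is 0.000583. Adjusted p-values are Benjamini-Hochberg values within the family named, and under 0.05 counted as passing. In leaf tissue, fewer cells with small RNA and less small RNA per cell cannot be told apart.

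Fully green leaves carried 30.3-fold more RUBY small RNA than fully red leaves (95% interval 12.7 to 69.9; exact permutation p = 0.000583). The total of all lengths and both strands in fully green leaves was 1999 and 8222 RPM in MK054 numbers 3 and 4. It was 12702, 18689 and 27779.5 RPM in MK055 numbers 1, 2 and 3, and 2852 and 10019 RPM in MK056 numbers 5 and 6. In fully red leaves the total was 584 and 225 RPM in MK054, 224, 347 and 232 RPM in MK055, and 231 and 237 RPM in MK056, in the same order of numbers. All 7 fully green libraries lay above all 7 fully red ones, and the lowest green and the highest red total both belonged to MK054 number 3. Mean totals were 11752 ± 9090 RPM in the 7 fully green libraries and 297 ± 134 RPM in the 7 fully red ones (SD). Between libraries of the same event and number the fold was 3.42 in MK054 number 3, 12.3 in MK056 number 5 and between 36.5 and 119 in the other 5 pairs. With both libraries of MK054 number 3 left out, a choice made after seeing the data, the log2 difference was 5.44, against 4.92 with all libraries (exact permutation p = 0.00216). Fully green levels spanned over an order of magnitude, while 6 of the 7 fully red levels lay between 224 and 347 RPM.

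**Figure D1:**
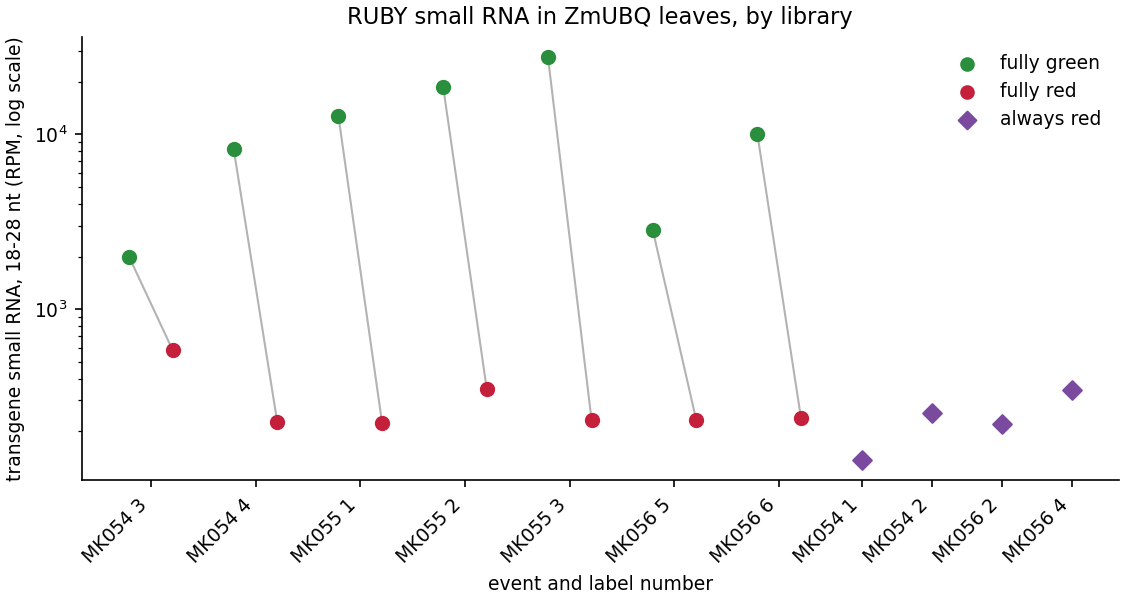
Total RUBY small RNA of 18 to 28 nt (RPM, log axis) in each ZmUBQ library, with fully green and fully red libraries of the same event and number joined by a line and the 4 always red libraries at the right. The 7 fully green libraries sit between 1999 and 27779.5 RPM, above all 7 fully red ones, which sit between 224 and 584 RPM.

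Of the 22 length and strand classes, 18 passed as higher in fully green leaves and 0 as lower (81.8% of all classes tested). In 13 classes (59.1%) every fully green library lay above every fully red one. These classes are everything the files hold, so both shares describe the whole measurement. The 4 classes that did not pass were 25, 26, 27 and 28 nt on the plus strand. With strands summed, 10 of 13 sums (11 lengths and the 2 strands) passed, all higher (76.9%), and the 26, 27 and 28 nt sums did not. These counts rest on libraries as the unit. With 1 mean per event, 3 against 3, the smallest exact permutation p is 0.1, and 0 of 22 classes could pass. They also rest on scaling to mapped reads. Scaled instead by TMM over the 22 classes, which centres each library on its typical class, edgeR called 10 classes higher and 10 lower, against 18 higher and 0 lower with mapped reads as the library size. A class lower under TMM is therefore lower relative to the other RUBY classes. Without both libraries of MK054 number 3, 18 classes and 10 sums passed by the exact permutation test, and 39 of the 46 shares described below.

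**Figure D2:**
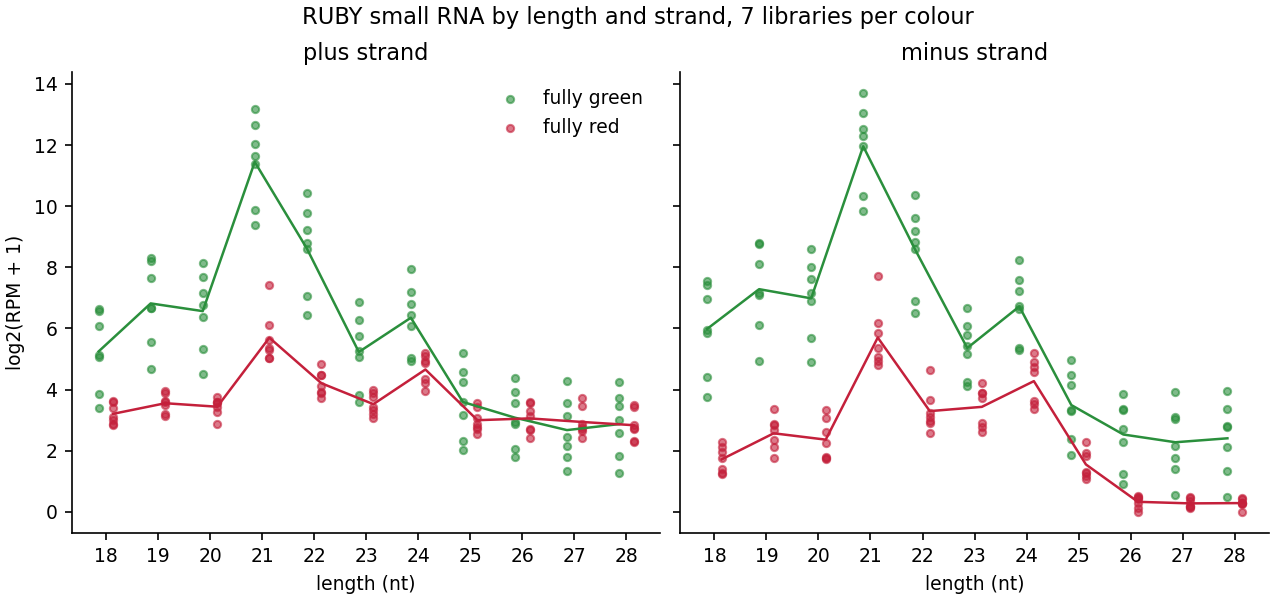
Level of each length class on the plus strand (left) and the minus strand (right) as log2(RPM + 1), one point per library and lines through the group means of 7 fully green and 7 fully red libraries. The green profile peaks at 21 nt on both strands, and the groups run together at 26 to 28 nt on the plus strand while red libraries are near 0 there on the minus strand.

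The 21 nt class, the main length of DCL4 products, held most of the green signal and changed most in every pair. On the minus strand fully green leaves had 924 and 3997 RPM in MK054, 5828, 8482 and 13274 RPM in MK055, and 1297 and 5041 RPM in MK056. Fully red leaves had 211 and 56.4 RPM in MK054, 40.4, 72.2 and 32.4 RPM in MK055, and 29.4 and 26.7 RPM in MK056. Every green library was above every red one, by a fold of 76.5 (95% interval 27.5 to 205; exact permutation, adjusted p = 0.000986 over the 22 classes). The fold between libraries of the same event and number was 4.36 in MK054 number 3 and 42.7 to 398 in the others, and it was the highest of the 22 classes in all 7 pairs. On the plus strand 21 nt reads reached 662 and 2640 RPM in MK054, 4233, 6462 and 9233 RPM in MK055, and 942 and 3169 RPM in MK056 in fully green leaves. The fully red plus strand levels were 171 and 48.8 RPM in MK054, 37.9, 68.8 and 39.7 RPM in MK055, and 31.9 and 31.6 RPM in MK056. Here too the groups did not overlap, and the fold was 53.8 (20.5 to 136; adjusted p = 0.000986). The red library of MK054 number 3 was the highest of its group on both strands.

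The 22 nt class, the length of DCL2 products, rose by a lower fold than 21 nt small RNA in all 7 pairs on each strand. Plus strand 22 nt reads came to 86.5 and 390 RPM in MK054, 596, 868 and 1377 RPM in MK055, and 133 and 443 RPM in MK056 in fully green leaves. They came to 27.8 and 13.8 RPM in MK054, 14.1, 21.5 and 21.1 RPM in MK055, and 12.2 and 16.5 RPM in MK056 in fully red leaves, a fold of 21.3 without overlap of the groups (9.06 to 48.3; exact permutation, adjusted p = 0.000986). The minus strand carried 89.6 and 389.7 RPM in MK054, 588, 784 and 1315 RPM in MK055, and 118 and 457 RPM in MK056 in fully green leaves. Its fully red levels were 24.1 and 6.82 RPM in MK054, 6.47, 11.6 and 4.99 RPM in MK055, and 7.55 and 8.35 RPM in MK056. That is a fold of 38.8, again with every green library above every red one (15.2 to 94.4; adjusted p = 0.000986). The fold of the summed 22 nt class was 28.02, against 65.7 for 21 nt. For every 100 reads of 21 nt on the minus strand, fully green libraries had a median of 9.70 reads of 22 nt (range 9.07 to 10.1) and fully red libraries 16.0 (11.4 to 31.2). The ratio in green leaves was thus within a narrow range over the 3 events, and the 2 ranges did not overlap.

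The 23 and 24 nt classes showed much smaller differences, and on both strands some pairs showed little or none. Fully green leaves had 29.4 and 67.1 RPM of 24 nt plus strand reads in MK054, 112, 146 and 243 RPM in MK055, and 32.0 and 86.7 RPM in MK056. Fully red leaves had 29.9 and 14.5 RPM in MK054, 19.5, 28.4 and 17.4 RPM in MK055, and 35.3 and 32.9 RPM in MK056. The fold of green over red was 3.23 (1.63 to 6.46; exact permutation, adjusted p = 0.00712), but 5 of 7 pairs were higher, and MK054 number 3 and MK056 number 5 had folds of 0.985 and 0.909. On the minus strand 24 nt reads reached 37.9 and 98.1 RPM in MK054, 148, 190 and 299 RPM in MK055, and 40.5 and 105 RPM in MK056 in fully green leaves. Red minus strand levels were 25.8 and 9.38 RPM in MK054, 10.6, 22.7 and 11.2 RPM in MK055, and 35.6 and 29.1 RPM in MK056. No green library overlapped with the red ones, and the fold was 5.43 (2.52 to 11.8; adjusted p = 0.000986). Here MK054 number 3 and MK056 number 5 had folds of 1.45 and 1.13. The 23 nt class was 3.26-fold higher on the plus strand and 3.80-fold higher on the minus strand (adjusted p = 0.00679 and 0.00183), with 5 and 6 of the 7 green libraries above all red ones. At 23 nt minus the fold of MK056 number 5 was 0.934. The higher green means hold per mapped read, and under TMM scaling the 23 and 24 nt classes of both strands turned to lower in green. Summed 21 nt reads rose by a higher fold than summed 24 nt reads in 7 of 7 pairs.

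**Figure D3:**
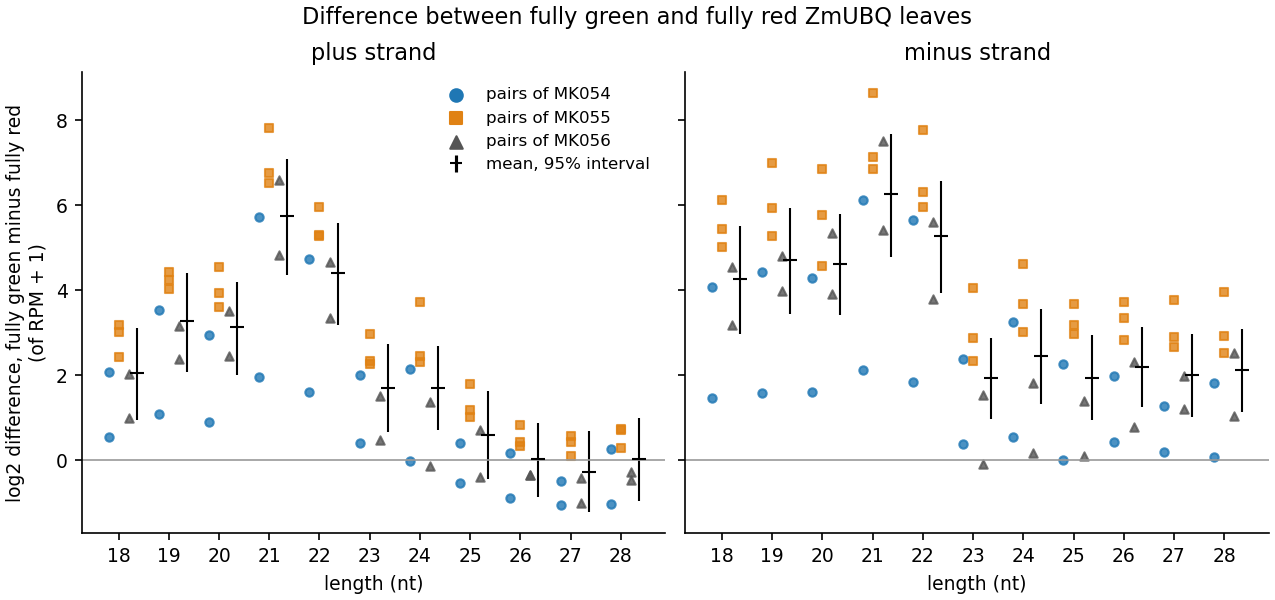
Difference in log2(RPM + 1), fully green minus fully red, for each length on the plus strand (left) and minus strand (right). Coloured points are the 7 pairs (1 event and number each), and black marks are group differences with 95% intervals from the exact permutation test. The difference peaks at 21 nt on both strands, is smaller at 23 and 24 nt and includes 0 at 25 to 28 nt on the plus strand. Under TMM scaling, not drawn here, 23 and 24 nt were lower in green relative to the other RUBY classes.

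The shorter reads of 18, 19 and 20 nt rose on both strands, with a higher fold on the minus strand in all 7 pairs at each of the 3 lengths. Minus strand means in fully green leaves were 90.1 ± 70.6, 218 ± 169 and 168 ± 124 RPM (SD, n = 7) at 18, 19 and 20 nt, against 2.41 ± 0.982, 5.29 ± 2.27 and 4.63 ± 2.65 RPM in fully red leaves. Taken from group means of log2(RPM + 1), the folds were 19.2, 26.2 and 24.6 (exact permutation, adjusted p = 0.000986 each), and the groups did not overlap. They are not ratios of the RPM means. Plus strand means were 49.8 ± 36.6, 155 ± 117 and 126 ± 92.4 RPM in fully green leaves, against 8.46 ± 2.24, 11.0 ± 2.57 and 10.0 ± 2.03 RPM in fully red leaves. The plus strand folds, taken in the same way, were 4.12, 9.61 and 8.74. The 18 nt plus class (adjusted p = 0.00321) turned to lower in green under TMM scaling. The 19 and 20 nt plus classes kept their direction there but did not pass (edgeR, adjusted p = 0.0962 and 0.293). The minus strand classes of all 3 lengths still passed as higher.

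The longest reads, 25 to 28 nt, separated by strand. At 25 nt on the plus strand fully green leaves had 3.06 and 8.10 RPM in MK054, 18.1, 22.9 and 35.8 RPM in MK055, and 4.03 and 11.1 RPM in MK056. Fully red leaves had 4.91 and 5.81 RPM in MK054, 7.47, 10.8 and 9.70 RPM in MK055, and 5.59 and 6.39 RPM in MK056. The groups overlapped and the 1.51-fold difference did not pass (0.738 to 3.09; exact permutation, adjusted p = 0.256). At 26, 27 and 28 nt plus the folds were 1.02, 0.831 and 1.03, with 95% intervals of 0.552 to 1.84, 0.431 to 1.62 and 0.518 to 1.98. Per pair, 27 nt plus had the lowest fold of the 22 classes in 6 of 7 pairs, and 26 nt plus in MK055 number 1. The minus strand differed. At 25 nt it held 2.60 and 9.07 RPM in MK054, 16.7, 21.2 and 30.01 RPM in MK055, and 4.26 and 8.94 RPM in MK056 in fully green leaves. In fully red leaves it held 2.56 and 1.09 RPM in MK054, 1.24, 1.45 and 1.44 RPM in MK055, and 3.92 and 2.80 RPM in MK056. This was a 3.84-fold difference (1.92 to 7.77; adjusted p = 0.00256), carried by MK054 number 4, MK055 and MK056 number 6, since MK054 number 3 and MK056 number 5 had folds of 1.01 and 1.07, and it turned to lower in green under TMM scaling. Minus strand reads of 26, 27 and 28 nt were 4.60-fold, 4.00-fold and 4.34-fold higher in green (adjusted p = 0.000986 each). Red means there were 0.267, 0.218 and 0.226 RPM, at the level of 3 reads, with 0 to 7 reads per red library at 26 and 28 nt, so these folds depend on the pseudocount. The summed 25 nt class passed narrowly (2.17-fold; adjusted p = 0.0462), and that call was lost in 12 of 14 fits with 1 library left out.

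The length make-up of RUBY small RNA varied little between the 7 fully green libraries and widely between the 7 fully red ones. Of 46 shares of reads tested, 42 differed (91.3%), 15 higher (32.6%) and 27 lower (58.7%) in fully green leaves. Shares of 1 whole sum to 100%, so a higher 21 nt share lowers the others, and these tests are not independent of each other. Per mapped read, the level of 0 of the 22 classes passed as lower. Of all reads, 21 nt reads made up 80.1 ± 1.195% in fully green leaves, from 78.5 to 81.9%, but 38.6 ± 14.2% in fully red leaves, from 24.6 to 65.4% (SD, n = 7 each; exact permutation, adjusted p = 0.000766 over the 46 shares). Reads of 24 nt made up 2.23 ± 0.554% in green leaves against 16.8 ± 8.23% in red ones, and reads of 23 nt 0.929 ± 0.256% in green leaves against 7.95 ± 2.75% in red ones (adjusted p = 0.000766 each). For the 22 nt share no difference was detected, at 9.13 ± 0.362% in green and 9.58 ± 0.953% in red leaves (difference -0.44 percentage points, 95% interval -1.31 to 0.35, adjusted p = 0.319). The other shares that did not pass were those of 22 nt within each strand and the minus strand share of 23 nt reads. The highest 21 nt share among red libraries was in MK054 number 3, where 65.4% of 10471 reads were 21 nt (95% Wilson interval 64.5 to 66.3%), while MK056 numbers 5 and 6 had 26.5% (24.97 to 28.1%) and 24.6% (23.2 to 26.0%). In these 2 MK056 red libraries 24 nt reads outnumbered 21 nt reads on both strands, at 111 and 104 per 100 on the plus strand and 121 and 109 per 100 on the minus strand. The fully green median was 2.64 on the plus and 2.46 on the minus strand, with no library above 4.44. The fully red median was 43.8 on the plus and 31.4 on the minus strand, with no library below 12.2.

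The surplus of a green library over the red library of the same event and number had a similar make-up in all 7 pairs. It ranged from 1415 RPM in MK054 number 3 to 27547 RPM in MK055 number 3. Of this surplus 80.0 to 85.1% was 21 nt (median 81.7%), 8.78 to 9.68% was 22 nt and 0.0617 to 1.87% was 24 nt. The minus strand made up 56.3 to 60.6% of it. The 24 nt part was lowest in MK056 number 5 and in MK054 number 3, the pairs with the smallest folds.

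The strand balance moved towards the minus strand in fully green leaves at 10 of 11 lengths. The minus strand held 57.7 ± 1.38% of all reads in fully green leaves, from 56.0 to 60.0%, against 39.6 ± 7.61% in fully red leaves, from 26.5 to 51.4% (exact permutation, adjusted p = 0.000766). Among the 10 lengths that passed, the difference was smallest for 21 nt reads, 58.8% in green and 50.05% in red leaves, and 24 nt reads had 56.4% in green and 43.1% in red leaves. At 22 nt it was 49.2% in green and 33.9% in red leaves, so the strands were nearly equal at 22 nt in green leaves while 21 nt reads had a minus excess. The 23 nt class alone did not pass, with 52.4 ± 5.39% in green leaves against 48.3 ± 13.4% in red ones (adjusted p = 0.480). Among 18 nt reads it was 62.7% in green and 22.2% in red leaves, and among 26, 27 and 28 nt reads 37.9, 40.1 and 38.9% in green against 3.86, 3.67 and 4.10% in red leaves. Over all reads outside 21 to 24 nt the minus share was 57.3 ± 1.43% in fully green leaves, against 21.3 ± 8.14% in fully red leaves (adjusted p = 0.000766). Reads of fully red leaves outside 21 to 24 nt thus lay mostly on the plus strand.

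**Figure D4:**
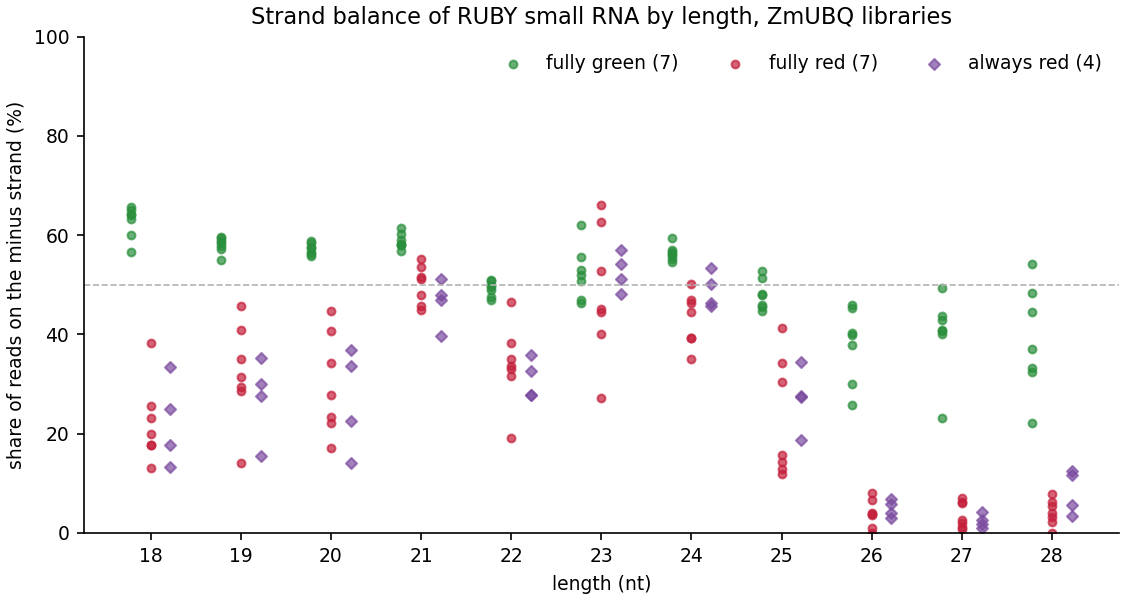
Share of RUBY reads on the minus strand (%) at each length, one point per library, for 7 fully green, 7 fully red and 4 always red ZmUBQ libraries, with a dashed line at equal strands. Green libraries lie above red ones at every length except 23 nt, and at 26 to 28 nt fully red libraries lie between 0 and 7.94% and always red ones between 0.990 and 12.4%.

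No difference between events passed, and pairs of the same event spread as well. With 210 assignments of event labels to 7 pairs and an adjustment over 23 features, only large differences could pass. The events are thus not shown to be alike. For the log2 difference of the total within pairs, the SD of single pairs within events was 1.43 and that of the event means 1.35. Event means average 2 or 3 pairs and also carry the spread within events, so the SDs are not directly comparable. The geometric mean total in fully green leaves was 4055 RPM in MK054, 18753 RPM in MK055 and 5346 RPM in MK056, and in fully red leaves 362, 262 and 234 RPM. Mean log2 differences between green and red within pairs were 3.48 in MK054, 6.15 in MK055 and 4.51 in MK056, and events held 52.4% of the variation of the 7 values (exact permutation of event labels, p = 0.162, adjusted p = 0.188). Libraries of MK055 had the 3 highest green totals, and all 22 classes were higher in green in its 3 pairs. In MK054 number 3, 5 classes were not higher in green, in MK054 number 4 it was 1, in MK056 number 5 it was 6 and in MK056 number 6 it was 3. All but 1 of these lay at 24 to 28 nt on the plus strand, and the other was 23 nt minus in MK056 number 5. Of 23 features (22 classes and the total), 0 passed for the difference within pairs, for the green level or for the red level (0%), with 2 each at an unadjusted p under 0.05 and smallest adjusted p of 0.188, 0.169 and 0.418. Within 1 event the pairs also differed, since the 2 pairs of MK054 had folds of 3.42 and 36.5 and those of MK056 12.3 and 42.0. Without MK055, 14 of 22 classes passed. Besides 25 to 28 nt plus, the classes that did not were 23 and 24 nt plus and 23 and 25 nt minus. With fewer libraries the test has a higher floor, and the total gave its smallest possible value (exact permutation p = 0.0286).

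Always red plants place the fully red leaves beside plants labelled as having stayed red. Fully red leaves had 297 ± 134 RPM (SD, n = 7) and always red plants 238 ± 85.5 RPM (SD, n = 4), with single always red totals of 136 and 254 RPM in MK054 and 219 and 343 RPM in MK056. Taken from group means of log2(RPM + 1), the ratio was 1.23 (95% interval 0.735 to 2.10; exact permutation p = 0.388, adjusted p = 0.754). Of 25 features, the 22 classes, the total and both strands, 0 passed (0%), with 0 at an unadjusted p under 0.05. At 21 nt minus, fully red leaves had 66.9 ± 65.6 RPM and always red plants 38.9 ± 23.7 RPM, and the interval of their ratio, 0.571 to 4.80, is wide. Their make-up is given without a test. Reads of 21 nt were 38.6 ± 14.2% of the total in fully red leaves and 31.8 ± 11.3% in always red plants, and minus strand reads 39.6 ± 7.61% in fully red leaves and 39.5 ± 2.38% in always red plants.

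To see whether the colour difference has the same shape under another promoter, the 7 ZmUBQ pairs were set beside 9 pairs of 35S fully green and fully red Col-0 leaves from 6 events, by exchanging promoter labels over all 16 pairs. The total differed by 30.3-fold between colours under ZmUBQ and 41.7-fold under 35S, and the promoters did not differ beyond the spread of pairs (log2 difference -0.46, 95% interval -1.90 to 0.92; exact permutation, adjusted p = 0.638 over 25 features). The 21 nt folds were 53.8 under ZmUBQ and 55.3 under 35S on the plus strand and 76.5 under ZmUBQ and 69.9 under 35S on the minus strand, with intervals on the log2 scale of -1.64 to 1.44 and -1.87 to 2.04. Of the 25 features 10 passed (40%), all with a smaller colour difference under ZmUBQ. An edgeR interaction that does not use the pairs called 4 of them, 24 nt plus and 23, 24 and 25 nt minus, and with 1 mean log2 fold per event 6 passed, all on the minus strand. The 10 were 23, 24, 27 and 28 nt on the plus strand and every length from 23 to 28 nt on the minus strand. For 24 nt minus the fold was 5.43 under ZmUBQ and 61.3 under 35S (log2 difference -3.50, -5.10 to -1.88; adjusted p = 0.00273), and for 23 nt minus 3.80 under ZmUBQ and 47.2 under 35S (-3.64, -4.98 to -2.27; adjusted p = 0.00219). At 25 nt minus the folds were 3.84 under ZmUBQ and 29.1 under 35S (adjusted p = 0.00219), and on the plus strand 24 nt folds were 3.23 under ZmUBQ and 13.8 under 35S (adjusted p = 0.0199). Levels are given here over all libraries of each group. Median 24 nt minus levels were 105 RPM in ZmUBQ fully green leaves (range 37.9 to 299) and 730 RPM in 35S fully green leaves (251 to 1195). In fully red leaves they were 22.7 RPM under ZmUBQ (9.38 to 35.6, n = 7) and 4.47 RPM under 35S (0 to 34.4, n = 13). The 13 include libraries in no pair, which lower this median, so it is not that of the 9 pairs tested. The 35S value of 0 came from the fully red library of MK044 number 3, which had 0.905 M mapped reads, 404 reads on the transgene and 7 unlisted classes set to 0. Without that pair 12 features passed, and the 24 nt minus difference was -3.24 (adjusted p = 0.00583). Per 100 minus strand reads of 21 nt, ZmUBQ fully green libraries had a median of 2.46 reads of 24 nt and ZmUBQ fully red libraries 31.4. The 35S fully green median was 2.69 and the 35S fully red median 2.68 (range 1.84 to 3.14 over the 12 libraries with at least 30 such reads). The calls at 26, 27 and 28 nt minus were lost at a pseudocount of 0.1 RPM, and those on the plus strand with 1 mean per event. Promoter and any difference in how the 2 sets of libraries were made cannot be told apart.

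**Figure D5:**
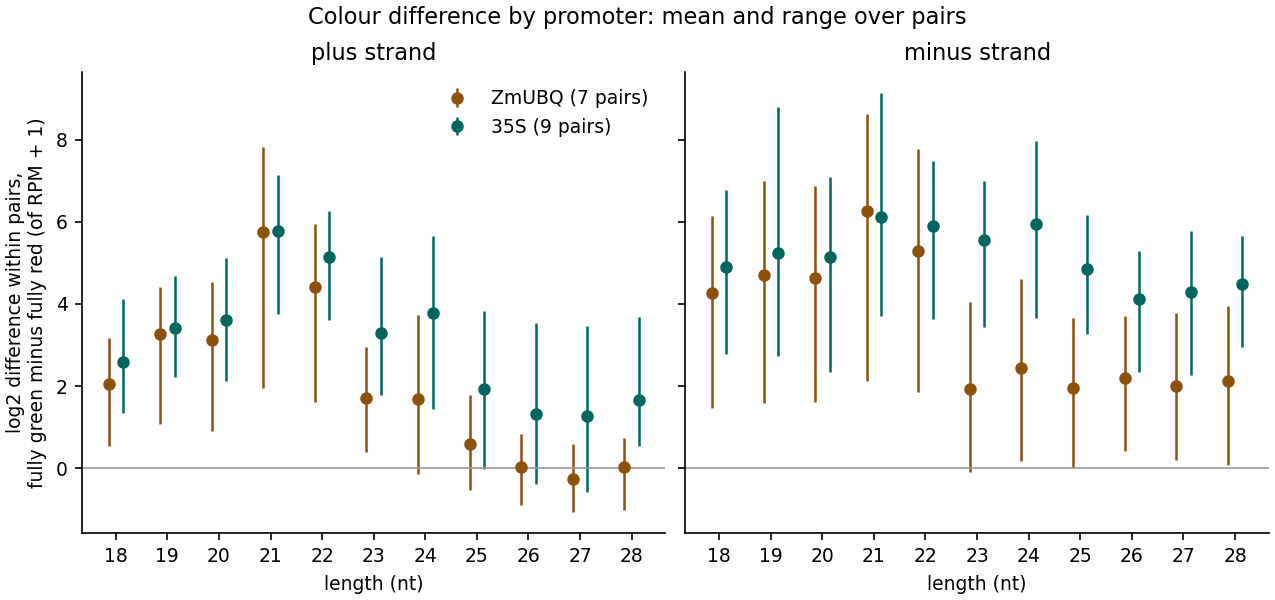
Mean and range over pairs of the log2 difference between fully green and fully red leaves, for 7 ZmUBQ pairs and 9 pairs of 35S, on the plus strand (left) and minus strand (right). The ranges of the 2 promoters overlap at every length on both strands. The ZmUBQ mean lies below the 35S mean in every class but 21 nt minus, with the widest gaps at 23 to 25 nt minus.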

How the data were processed

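Each deposited file gave read counts for the whole transgene by length and strand, with the mapped reads of the library. The deposited RPM values are the authors' counts per 1000000 mapped reads, which was checked on all 871 lines used (0 deviated by over 1e-06). TAIR10 is named as the genome build, per the submitters' processing notes. Per the labels' protocols, RNA was extracted with TRIzol and libraries were made with the TruSeq Small RNA kit. The aligner, trimming, read filters and treatment of multiple matches are not given in the sources used here. Classes not listed were set to 0, which in the ZmUBQ leaves concerned 1 class each in 2 fully red libraries. Groups of the series not named above were not analysed here.

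RPM was summed over classes, and log2 was taken after adding a pseudocount of 1 RPM. Shares needed at least 30 reads, and their tests used percentages. Intervals hold the shifts that the exact permutation test did not reject at 0.05. Families were 22 classes, 13 sums, 46 shares, 23 features for events and 25 each for promoters and always red plants. Event tests permuted event labels over pairs, of which there are 210 assignments. Named features were the total, the 22 classes and the 46 shares, with every library's value for the total and for 21, 22, 24 and 25 nt. The members and lists were chosen with earlier results of these data known. Within groups, 48 pairs of ZmUBQ libraries were checked for duplicates with a chi-squared test on counts, and 0 gave p over 0.05. Alternatives were other pseudocounts, scalings and read minimums, ranks, blocks, 1 mean per event, libraries or events left out, and count tests with edgeR 4.0.16 (quasi-likelihood) and DESeq2 1.42.0 in R 4.3.3. Other steps used Python 3.11.15, numpy 2.4.6, pandas 2.3.3 and scipy 1.17.1. The test was first tried on simulated data with known answers.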

Additional observations from a re-analysis of the deposited data

Results flagged for a closer look

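Each set of 7 libraries was checked for a highest or lowest library far from its neighbour beside the range of the set, and 10 of 142 sets had one, a number to be read against the about 1 in 20 sets that chance gives. In fully green leaves MK054 number 3 had the highest 23 nt shares, at 1.47% of all reads, 1.30% of plus strand reads and 1.59% of minus strand reads. It also had the lowest minus strand share of 27 nt reads, 23.1%, and of reads outside 21 to 24 nt, 54.2%. In fully red leaves the library of the same event and number had the highest 21 nt share of plus strand reads, 60.2%, and the lowest 25 nt share of them, 1.73%. The fully green library of MK056 number 5 had the highest 20 nt share of all reads, 3.14%, and of plus strand reads, 3.16%. The fully green library of MK055 number 1 had the highest 26 nt share of minus strand reads, 0.126%, from 134 reads.

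The log2 difference between fully green and fully red leaves was smaller under ZmUBQ than under 35S for 10 features by the exact permutation test of the difference itself, of which an edgeR interaction without the pairs called 4. The ZmUBQ minus 35S values on the plus strand were -1.58 at 23 nt, -2.09 at 24 nt, -1.55 at 27 nt and -1.63 at 28 nt. On the minus strand they were -3.64 at 23 nt, -3.50 at 24 nt, -2.92 at 25 nt, -1.92 at 26 nt, -2.29 at 27 nt and -2.36 at 28 nt.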

How the results depend on the processing

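The green and red totals kept their direction under every alternative run. With 1 mean per event the log2 difference was 4.71 (exact permutation p = 0.1, the smallest that 3 against 3 allows), and 0 classes, 0 sums and 0 shares passed. TMM scaling moved the total to a log2 difference of 1.90, against 5.31 in edgeR with mapped reads. It turned 18, 23, 24, 25, 26 and 28 nt plus (-0.84, -1.22, -1.23, -2.40, -3.06 and -3.10) and 23, 24 and 25 nt minus (-0.95, -0.54 and -0.69). Levels of 26 and 28 nt plus, which did not pass, turned to -0.00493 and -0.0147 at a pseudocount of 0.1 RPM, to -0.0604 and -0.0545 with 1 mean per event, to -0.00161 and -0.00472 in edgeR with the replicate block, and to -0.35 and -0.37 without MK055. Without MK055 the summed 27 nt level turned to -0.26 and the minus share of 23 nt to -0.77 points. The cause was not tested.

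Between promoters 6 features passed with 1 mean log2 fold per event and 4 in an edgeR interaction without the replicate block. The 21 nt minus difference turned to -0.0336 at a pseudocount of 10 RPM and -0.27 with 1 mean per event, and in the edgeR interaction 21 nt plus turned to 0.00365 and 18, 19 and 20 nt minus to 0.0696, 0.29 and 0.16.

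Leaving out 1 library at a time, the total ranged from 4.63 to 5.27 and the classes that passed from 18 to 18. Sums that passed ranged from 9 to 11 and shares from 38 to 43, while always red features stayed at 0. Levels of 26 and 28 nt plus ranged from -0.20 to 0.24 and from -0.19 to 0.30. Event and promoter fits left out both libraries of 1 pair at a time. In these, promoter features that passed ranged from 9 to 12 and event features stayed at 0. Promoter differences ranged from -0.34 to 0.22 (19 nt plus), -0.27 to 0.82 (21 nt minus), -0.39 to 0.59 (21 nt plus), -0.97 to 0.0455 (minus strand) and -0.79 to 0.0612 (total). The promoter call of 27 nt plus was lost in 4 of 16 fits without 1 pair. The calls of the 19, 20, 26 and 28 nt shares of minus strand reads were lost in 9, 8, 10 and 10 of 14 fits without 1 library.

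Length and strand profiles of libraries with the same event and number had correlations from -0.54 to 0.55 after group means were removed, over 0.1 in 3 of 7 pairs, and 0 fully green libraries matched best with their own number, so the numbers are not shown to pair the libraries. With the replicate block (sign flips within pairs) the total passed (exact permutation p = 0.0156) as did 17 classes, 9 sums and 38 shares, without 24 nt plus, the 25 nt sum and the 19, 20, 26 and 28 nt shares of minus strand reads. Depth limits 26 to 28 nt minus, where red libraries had few reads.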
